A study of Mus musculus with 48 samples.

Results

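The 69 genes described here encode the proteins that recognise introns and assemble the spliceosome in mouse aorta. They were taken by symbol from the 18782 genes in the table of expected counts. The families were 12 Snrp genes, 9 Sf3a and Sf3b genes (the Sf3 family), 13 Prpf genes, 3 Luc7l genes, 11 Srsf genes and 21 Hnrnp genes. Symbols, not measured values, decided membership, and changes smaller than 2-fold were kept. Of the 69, 67 passed edgeR's filter on low counts and were tested among 14431 genes. The 2 that did not pass were Srsf12, an SR protein gene with a mean of 0.0904 counts per 1000000 (CPM), and Hnrnpa1l2-ps2, a pseudogene of Hnrnpa1 with 0.206 CPM.

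RNA was sequenced from the thoracic aorta of 48 wild-type C57BL/6J mice, 1 library each. Male and female controls (10 MaCon and 10 FeCon) drank normal water. The other mice drank water with 0.4% β-aminopropionitrile (BAPN), which blocks lysyl oxidase and so the cross-linking of collagen and elastin, for 28 days from an age of 3 weeks. They were sorted by outcome into 4 MaNonAD and 8 FeNonAD mice without an aortic lesion and 7 MaAAD and 9 FeAAD mice with dissection or aneurysm. The sources differ on whether NonAD was judged by eye or under the microscope. AAD pools both lesion types, only survivors to the end were sampled, lesioned segments were taken, and AAD and NonAD mice were not assigned at random. Library totals lay between 13548003 and 17281262 counts.

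Splicing removes introns in steps carried out by small nuclear ribonucleoprotein particles (snRNPs). The U1 particle marks the 5′ splice site and the U2 particle the branch point, after which the tri-snRNP of U4, U6 and U5 joins and the catalytic site forms. SR proteins, encoded by Srsf genes, and hnRNP proteins bind the transcript and shift which exons are kept. Many SR and hnRNP genes adjust their own messenger levels through exons that trigger decay. In arteries, choices of exon differ between contractile and dividing smooth muscle cells.

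The promoters of 4 members are printed because these genes carry the 2 opposite patterns described below, Snrpe and Srsf9 being higher and Sf3b1 and Prpf6 lower in FeAAD than in FeCon. The sequences are RefSeq's, on the GRCm38.p6 build, and cover the 250 bases that precede each gene's start, in which no GENCODE M21 transcript of the gene shares a stretch of 20 bases. Capitals mark matches to the letters CCGGAA, the core of ETS sites, read on both strands with overlaps counted. The windows are chr1:133610281-133610530 on the minus strand for Snrpe, chr5:115326927-115327176 on the plus strand for Srsf9, chr1:55027479-55027728 on the minus strand for Sf3b1 and chr2:181601069-181601318 on the plus strand for Prpf6.
Snrpe: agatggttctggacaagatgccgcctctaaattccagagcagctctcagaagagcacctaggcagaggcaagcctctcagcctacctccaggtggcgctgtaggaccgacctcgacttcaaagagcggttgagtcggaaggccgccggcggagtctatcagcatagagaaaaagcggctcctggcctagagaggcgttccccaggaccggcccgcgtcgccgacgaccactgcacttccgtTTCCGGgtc
Srsf9: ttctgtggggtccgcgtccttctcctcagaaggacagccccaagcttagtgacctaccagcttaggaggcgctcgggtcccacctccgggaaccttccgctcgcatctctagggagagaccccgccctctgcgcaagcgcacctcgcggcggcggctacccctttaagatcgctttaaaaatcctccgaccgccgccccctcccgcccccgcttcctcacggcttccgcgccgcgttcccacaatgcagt
Sf3b1: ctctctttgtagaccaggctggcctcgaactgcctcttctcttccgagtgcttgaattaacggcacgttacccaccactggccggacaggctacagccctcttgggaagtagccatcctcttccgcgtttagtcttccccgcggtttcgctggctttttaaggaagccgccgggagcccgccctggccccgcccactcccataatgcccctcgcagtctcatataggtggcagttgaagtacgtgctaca
Prpf6: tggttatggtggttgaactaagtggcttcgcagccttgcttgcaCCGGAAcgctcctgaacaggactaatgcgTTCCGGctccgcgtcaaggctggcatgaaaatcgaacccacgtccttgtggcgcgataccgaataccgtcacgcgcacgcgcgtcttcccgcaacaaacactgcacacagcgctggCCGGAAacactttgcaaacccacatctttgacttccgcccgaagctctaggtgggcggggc

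Snrpe held 1 match and Prpf6 held 3, while the Srsf9 and Sf3b1 windows held none of these letters. A promoter entry was found for 60 of the 69 members, and 27 of those 60 (45%) held the ETS core, against 17.6% of 14629 promoters of listed genes. The CCAAT box (letters CCAAT) was in 48.3% of member promoters and in 36.1% of all. The E-box (CACGTG) was in 8.33% against 7.46%, and the AP-1 letters TGANTCA were in 5% against 5.35%. None of the 4 printed windows held any of these other letters.

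No called member moved by 2-fold or more in any comparison, while 12.7% of all tested genes were called with at least a 2-fold change in FeAAD and 11.4% in MaAAD against control, 2.75% in FeNonAD against FeCon, 7.04% in FeAAD against FeNonAD, 0.353% in MaAAD against MaNonAD and 1.51% in MaCon against FeCon. A member is called higher or lower where edgeR's quasi-likelihood test gave a Benjamini-Hochberg adjusted p under 0.05 over all 14431 genes, and fold changes are given as log2 values with their standard error (SE). In FeAAD against FeCon, 26 of 67 members (38.8%) were called, 7 higher and 19 lower, where 44.4% of all tested genes were called (23.8% higher and 20.6% lower). In MaAAD against MaCon, 14 members (20.9%) were called, 3 higher and 11 lower, against 35% of all genes (18.9% higher and 16.1% lower). The members' share was thus below that of all genes in both sexes, and their median log2 change was -0.05 in each. The map of changes by family shows where the calls fell.

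**Figure D1:**
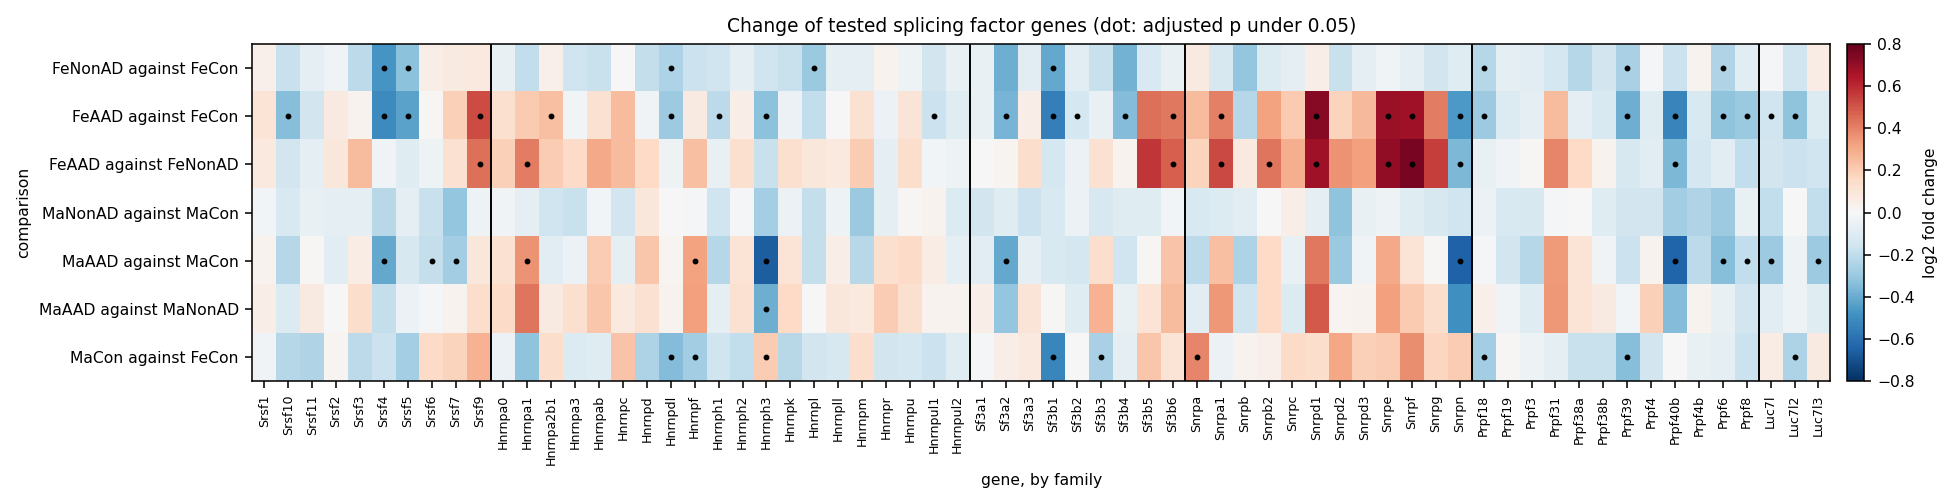
Log2 fold change of 66 tested members (columns, grouped by family) in 7 comparisons (rows), from blue for lower to red for higher in the first-named group, with a dot where the adjusted p was under 0.05. The red block in the rows of FeAAD falls on Snrp genes, Sf3b5, Sf3b6 and Srsf9, while the dots on blue in both sexes fall on Prpf6, Prpf8, Prpf40b, Snrpn, Srsf4, Hnrnph3, Sf3a2 and Luc7l.

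Before the families are described, 3 libraries need naming, since several results rest on them. FeAAD5, FeAAD9 and MaAAD7 stood apart in neutrophil and proliferation genes. The summed level of 5 neutrophil genes was 881 CPM in FeAAD5, with a median of 11.5 CPM over the 9 FeAAD mice, and 237 CPM in MaAAD7, with a median of 22 CPM over MaAAD, and was 200 CPM in FeAAD9. The sum of 6 proliferation genes was 494 CPM in FeAAD5 and 270 CPM in MaAAD7, against medians of 155 and 122 CPM, and was 354 CPM in FeAAD9. The sum of 6 heart muscle genes was 334 CPM in MaAAD7, with a MaAAD median of 43.5 CPM. In macrophage genes FeAAD5 was highest at 5622 CPM, and MaAAD7, at 3720 CPM, was the highest of MaAAD, with a median of 1679 CPM. FeAAD9, at 893 CPM, was below the FeAAD median of 1160 CPM.

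The Snrp genes encode the protein core of the snRNPs, and 4 of 12 rose in FeAAD over FeCon. Products of Snrpb, Snrpd1, Snrpd2, Snrpd3, Snrpe, Snrpf and Snrpg form the Sm ring around each small nuclear RNA. Snrpd1 was at 12.9, 14.6 and 20.5 CPM (lowest, median and highest library) in FeCon and at 11.9, 19.2 and 67.1 CPM in FeAAD. The lowest value of the 2 groups was thus in FeAAD, and the top of FeAAD was held by FeAAD5 at 67.1 and FeAAD9 at 46.5 CPM. The fitted rise was 0.73 ± 0.20 (log2, SE, n = 9 and 10 mice, edgeR adjusted p = 0.00276).

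Snrpe, another ring subunit, was at 10.3, 14 and 22.2 CPM in FeCon and at 12.5, 18.6 and 61.8 CPM in FeAAD. Its rise was 0.69 ± 0.19 (log2, SE, edgeR adjusted p = 0.00305). Snrpf, its neighbour in the ring, was at 12.9, 14.2 and 22 CPM in FeCon against 12.1, 19.3 and 62 CPM in FeAAD. Its change was 0.68 ± 0.22 (edgeR adjusted p = 0.0104), and without FeAAD5 and FeAAD9 no FeAAD library exceeded the highest FeCon library for either gene. Snrpa1, the U2 protein A′, gave 17.9 ± 2.62 CPM in FeCon and 23.6 ± 12.2 CPM in FeAAD (mean ± SD, n = 10 and 9), a rise of 0.40 ± 0.16 (log2, SE, edgeR adjusted p = 0.0373).

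Snrpd1 and Snrpe kept their calls without FeAAD5 or FeAAD9 alone, whereas Snrpf lost its call without FeAAD5 (log2 0.39, edgeR adjusted p = 0.11) and Snrpa1 without FeAAD5 (0.18), FeAAD9 (0.29) or FeCon10 (0.38). When FeAAD5, FeAAD9 and MaAAD7 were left out together, none of these 4 rises was called. Snrpd1 then changed by 0.14 (edgeR adjusted p = 0.313), Snrpe by 0.15 (adjusted p = 0.299) and Snrpf by 0.11 (adjusted p = 0.587). Snrpa1 turned to -0.01 (edgeR adjusted p = 0.956). With offsets for GC content and transcript length, Snrpf and Snrpa1 also lost their calls, at 0.32 and 0.17.

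In males the same genes were highest in MaAAD7. In MaCon, Snrpe was at 14.2, 16.6 and 21.1 CPM, in MaNonAD at 13.4, 19.5, 15.8 and 16.7 CPM, and in MaAAD at 16.4, 19.2 and 32.3 CPM, the last in MaAAD7. Its difference between MaAAD and MaCon was 0.30 ± 0.20 (log2, SE, edgeR adjusted p = 0.26). Snrpd1 reached 40.6 CPM in MaAAD7, where the next MaAAD library was at 23.8 CPM, and differed by 0.42 ± 0.21 (edgeR adjusted p = 0.129). No Snrp gene was called higher in MaAAD in the fit of all groups, but Snrpd1 and Snrpe were in a fit of MaAAD and MaCon alone, and Snrpd1 was without FeAAD5. The difference between the sexes in the response was not called for any of them.

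**Figure D2:**
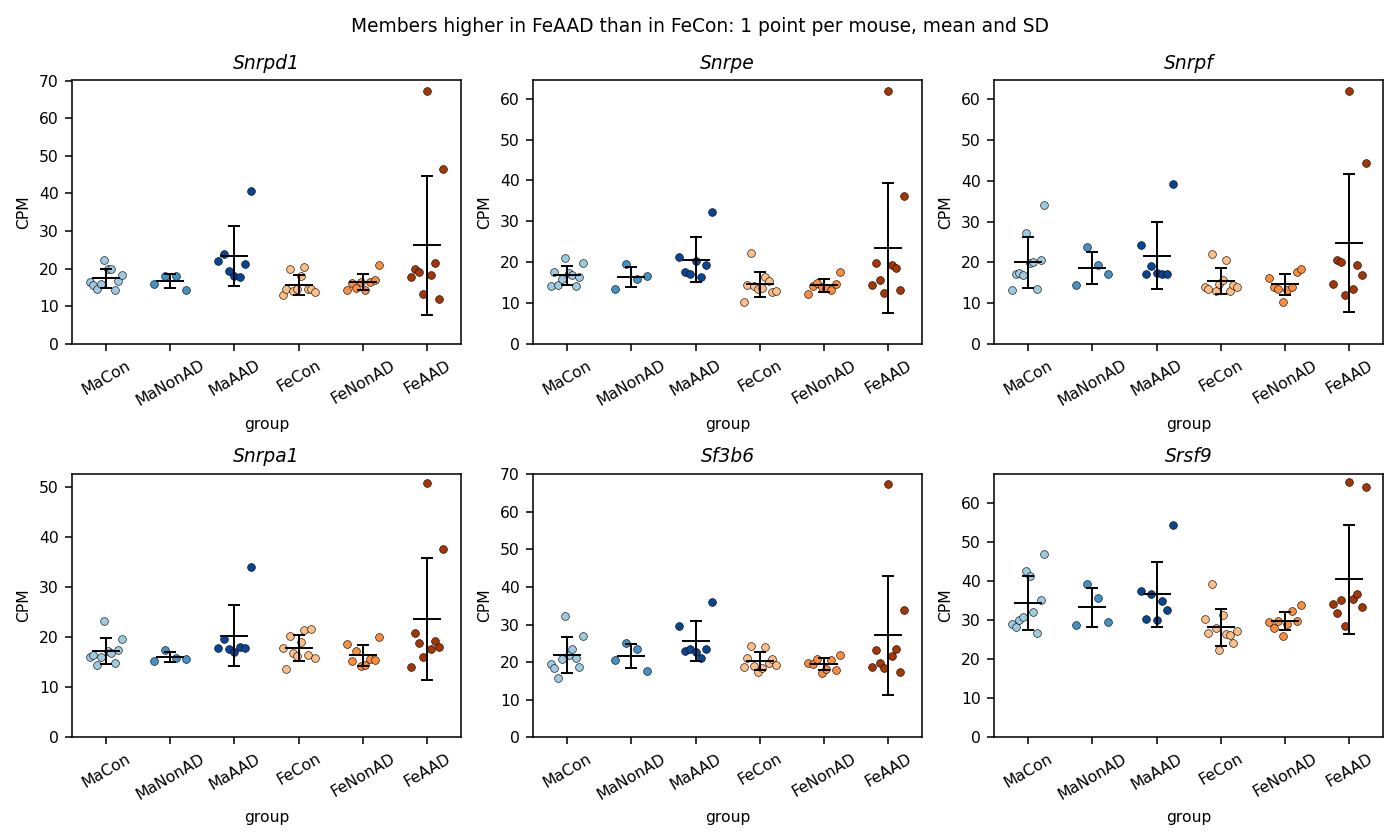
CPM of 6 members called higher in FeAAD than in FeCon, by group, with 1 point per mouse and bars for the mean ± SD. The 2 high points in each FeAAD column are FeAAD5 and FeAAD9 (61.8 and 36.1 CPM for Snrpe) and the high MaAAD point is MaAAD7 (32.3 CPM), while the other AAD mice overlap the controls.

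The level of the 7 ring genes together followed the same 3 libraries. The mean log2(CPM + 1) over the ring genes was 4.71 ± 0.24 in FeCon, 4.62 ± 0.17 in FeNonAD and 4.95 ± 0.63 in FeAAD (mean ± SD, n = 10, 8 and 9). FeAAD5 stood at 6.30 and the lowest FeAAD library at 4.32, below all of FeCon. In males the means were 4.90 ± 0.27, 4.80 ± 0.29 and 4.92 ± 0.33 in MaCon, MaNonAD and MaAAD. Against the proliferation genes, the 3 libraries with the highest sums had the 3 highest ring levels, while FeAAD2 and FeAAD1, next with sums of 189 and 174 CPM, had ring levels of 4.78 and 4.53, inside the FeCon range of 4.49 to 5.17. The part of dividing or infiltrating cells in the ring level was not tested.

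**Figure D3:**
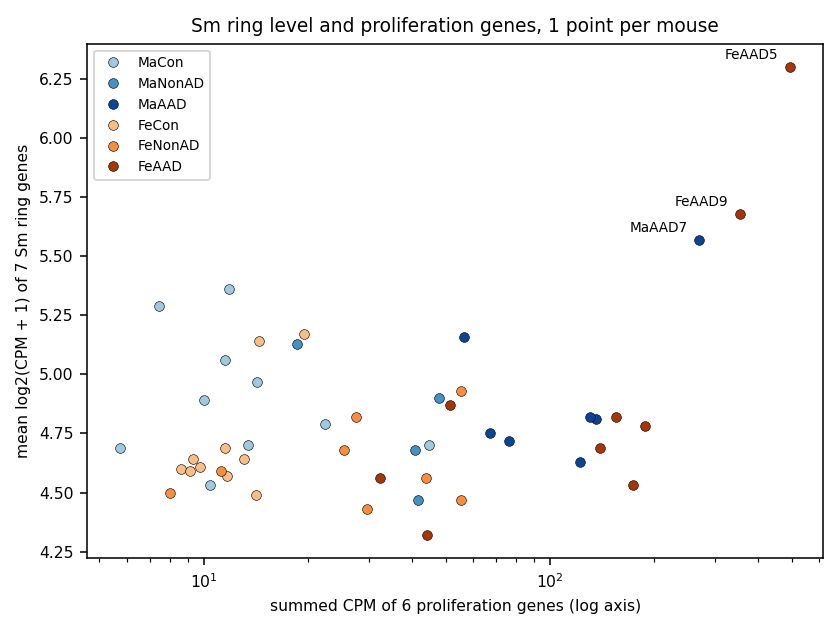
Mean log2(CPM + 1) of the 7 Sm ring genes (vertical) against the summed CPM of 6 proliferation genes (horizontal, log axis), 1 point per mouse, coloured by group. FeAAD5, FeAAD9 and MaAAD7 sit apart at the upper right, with FeAAD5 at 6.30, and no other mouse exceeds the 5.36 of MaCon10.

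Snrpn went the other way in both sexes. It encodes SmN, a variant of the Sm B protein that is expressed from the paternal copy of an imprinted locus. It was at 16, 18.2 and 28.4 CPM in MaCon, at 14.5, 22.7, 17.7 and 17.4 CPM in MaNonAD and at 10.4, 13.2 and 14.1 CPM in MaAAD, so that MaAAD and MaCon did not overlap. The fall was -0.65 ± 0.12 (log2, SE, n = 7 and 10, edgeR adjusted p = 3.13e-05). In females it fell from 17.6 ± 2.70 CPM in FeCon to 12.8 ± 2.23 CPM in FeAAD (mean ± SD), a change of -0.46 ± 0.11 (log2, SE, edgeR adjusted p = 0.00076). Snrpn is uncertain, since 95.8% of its expected counts were not whole, which shows that its reads were shared with another entry. Of the U1 proteins, edgeR called neither Snrpa nor Snrpc between BAPN and control mice, although Snrpa was called in MaAAD once GC and length offsets were used. Snrpb, which makes Sm B, was at 145 ± 24.6 CPM in FeCon and 123 ± 31.6 CPM in FeAAD (mean ± SD), at -0.23 (log2, edgeR adjusted p = 0.174). Snrpb was called lower with GC and length offsets in FeAAD, MaAAD and FeNonAD, and in FeAAD also without FeAAD5 and without FeAAD5, FeAAD9 and MaAAD7.

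The Sf3 genes encode the U2 subcomplexes SF3A and SF3B, which hold the branch point. Sf3b1, the scaffold of SF3B, fell in FeAAD and in FeNonAD. In FeCon its CPM was 279, 402 and 436 (lowest, median, highest), with 8 of 10 libraries at 364 CPM or above and FeCon2 and FeCon3 at 294 and 279. FeNonAD had 255, 278 and 349 CPM and FeAAD 246, 254 and 291 CPM. The male groups were all low, with 207, 258 and 332 CPM in MaCon, 261, 251, 202 and 268 CPM in MaNonAD and 183, 247 and 281 CPM in MaAAD.

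No library outside FeCon thus reached the 8 higher FeCon libraries. Sf3b1 changed by -0.55 ± 0.09 in FeAAD against FeCon (log2, SE, edgeR adjusted p = 4.09e-06), by -0.41 ± 0.09 in FeNonAD against FeCon (adjusted p = 0.003) and by -0.52 ± 0.09 in MaCon against FeCon (adjusted p = 0.000101). These 3 comparisons share the FeCon mice and are not independent. In MaAAD against MaCon the change was -0.12 ± 0.10 (edgeR adjusted p = 0.376). The difference between the sexes in the AAD response was 0.43 ± 0.13 (log2, male minus female, edgeR adjusted p = 0.0818), which missed the threshold in edgeR and was called with DESeq2 and with GC and length offsets.

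Of the other Sf3 genes, Sf3a2, Sf3b2 and Sf3b4 fell and Sf3b6 rose in FeAAD, Sf3b4 losing its call without FeCon10 and Sf3b2 without FeAAD5. Sf3a2, a subunit of SF3A, also fell in MaAAD, by -0.41 ± 0.15 (log2, SE, edgeR adjusted p = 0.0225), and in FeAAD by -0.37 ± 0.13 (adjusted p = 0.0238). Its male call was lost with GC and length offsets and in a fit of MaAAD and MaCon alone. Sf3b6, which contacts the branch point, had 17.4, 19.5 and 24.4 CPM in FeCon and 17.4, 21.6 and 67.3 CPM in FeAAD. Its rise of 0.42 ± 0.16 (edgeR adjusted p = 0.0327) went to 0.01 (adjusted p = 0.952) without FeAAD5, FeAAD9 and MaAAD7, and was not called without FeAAD5 alone (0.12) or FeAAD9 alone (0.37). Sf3b5, a small SF3B subunit, differed by 0.44 (adjusted p = 0.0846).

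The Prpf genes mostly fell where they were called. Their products include the U5 scaffold PRPF8, the tri-snRNP bridge PRPF6 and the U1-associated PRPF39 and PRPF40B. In FeAAD 5 of 13 fell and none rose, and in MaAAD 3 fell and 1 rose. Prpf40b was at 50.2, 56.1 and 66.9 CPM in MaCon, at 43.7, 49.1, 48.8 and 45.1 CPM in MaNonAD and at 30.9, 37.5 and 42 CPM in MaAAD. The 3 male groups did not overlap, and MaAAD was lower than MaCon by -0.64 ± 0.10 (log2, SE, edgeR adjusted p = 4.1e-06), with MaNonAD between them at -0.28 ± 0.12 from MaCon (adjusted p = 0.325).

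In females Prpf40b was at 47.6, 54.8 and 67.1 CPM in FeCon, at 41.9, 51.4 and 60.1 CPM in FeNonAD and at 21.7, 41.2 and 50.7 CPM in FeAAD, lowest in FeAAD5. It was lower in FeAAD than in FeCon, by -0.53 ± 0.10 (edgeR adjusted p = 1.63e-05), and than in FeNonAD, by -0.36 ± 0.10 (adjusted p = 0.0101). The fall from FeCon remained called in all 19 alternative fits run for it, with log2 changes between -0.56 and -0.42. The step from FeNonAD was not called when those 2 groups alone were fitted (adjusted p = 0.0963).

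Prpf6 was at 58.3, 65.9 and 72.8 CPM in MaCon, at 51.1, 57, 52 and 54.9 CPM in MaNonAD and at 49.3, 50.5 and 56.3 CPM in MaAAD. Every MaNonAD and MaAAD library was below every MaCon library. Its change was -0.34 ± 0.07 in MaAAD (log2, SE, edgeR adjusted p = 0.000239) and -0.29 ± 0.09 in MaNonAD (adjusted p = 0.135), each against MaCon. In females it fell by -0.32 ± 0.07 in FeAAD (adjusted p = 0.000162) and by -0.24 ± 0.07 in FeNonAD (adjusted p = 0.0195), but FeCon spread from 49.5 to 82.2 CPM and covered all other female mice.

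Prpf8 fell by -0.30 ± 0.08 in FeAAD (edgeR adjusted p = 0.00143) and by -0.20 ± 0.08 in MaAAD (adjusted p = 0.0466). Prpf39 fell in FeAAD, from 69.7 ± 8.06 to 53 ± 3.96 CPM (mean ± SD), by -0.39 ± 0.09 (log2, SE, edgeR adjusted p = 0.000232), and Prpf18, a second-step factor, fell there by -0.29 ± 0.07 (adjusted p = 0.00137). The male fall of Prpf8 was not called without MaAAD7, MaNonAD2 or MaNonAD3, with DESeq2 or its size factors, with no filter, with GC and length offsets or in a fit of MaAAD and MaCon alone.

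**Figure D4:**
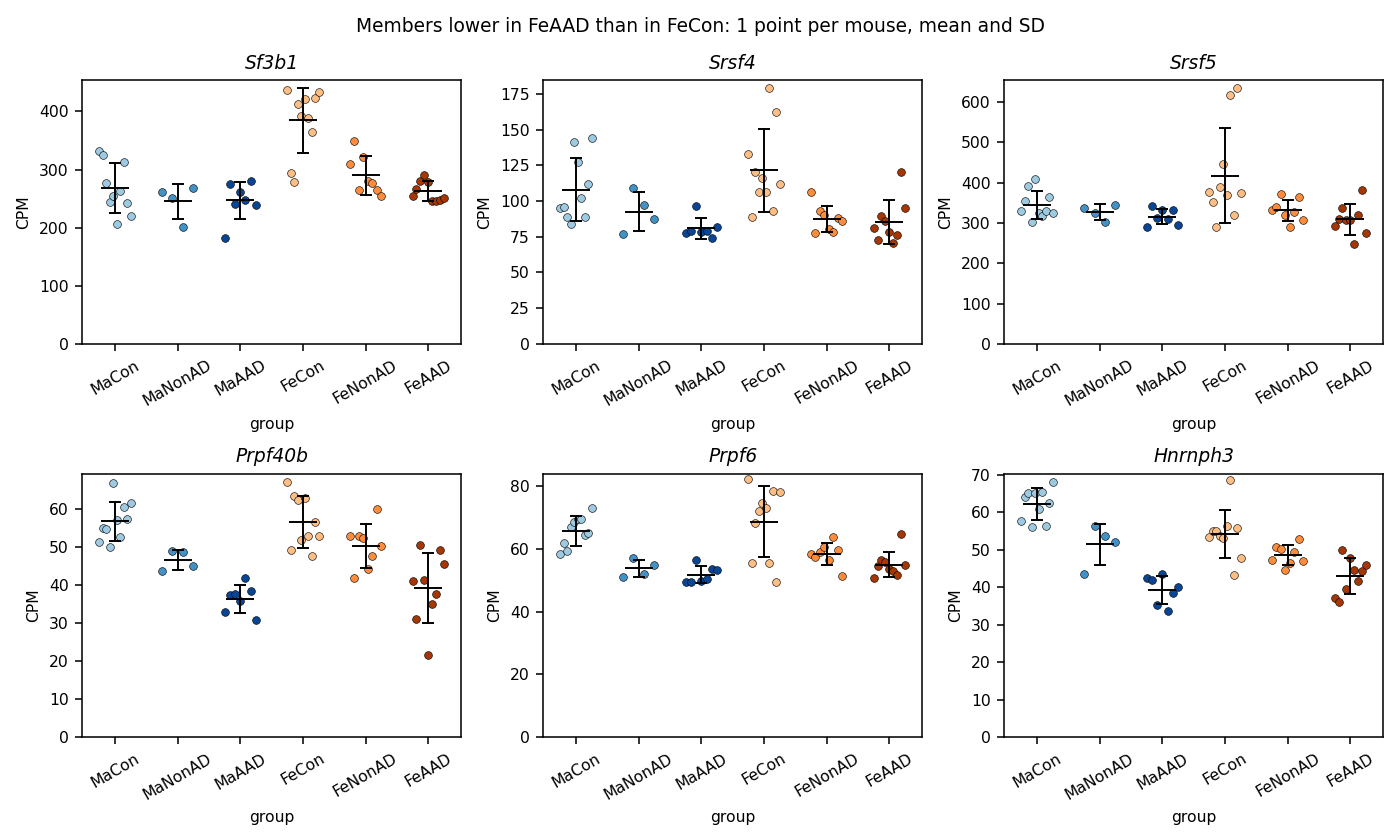
CPM of 6 members called lower in FeAAD than in FeCon, by group, with 1 point per mouse and bars for the mean ± SD. For Sf3b1, 8 of 10 FeCon points lie above all other mice; for Prpf40b and Hnrnph3, MaAAD lies wholly below MaCon; for Srsf5, the 2 high FeCon points are FeCon7 and FeCon9 at 616 and 634 CPM.

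The Luc7l genes encode U1-associated proteins that steer the choice of 5′ splice site, and no member of the family rose under BAPN. Luc7l was at 52.5, 61 and 68.7 CPM in MaCon, at 52.3, 55.1, 53.9 and 51.6 CPM in MaNonAD and at 46.1, 50.1 and 54.1 CPM in MaAAD. It fell by -0.29 ± 0.06 in MaAAD (log2, SE, edgeR adjusted p = 0.00041) and by -0.16 ± 0.06 in FeAAD (adjusted p = 0.0267). The FeAAD call was lost with no filter, with GC and length offsets and in a fit of FeAAD and FeCon alone. Luc7l3 fell in MaAAD by -0.29 ± 0.11 (adjusted p = 0.0301), a call lost without MaAAD7. Luc7l2 fell in FeAAD by -0.32 ± 0.09 (adjusted p = 0.00265), from 266 ± 32.4 to 213 ± 24.2 CPM (mean ± SD), although 25% of its expected counts were not whole and its reads were therefore partly shared.

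Among the SR proteins, Srsf4 fell in 3 groups of BAPN mice. It was at 88.5, 114 and 179 CPM in FeCon, at 77.7, 86.8 and 106 CPM in FeNonAD and at 70.7, 81.1 and 120 CPM in FeAAD. In males it was at 84.2, 99 and 144 CPM in MaCon, at 76.9, 109, 97.3 and 87.3 CPM in MaNonAD and at 74, 79.1 and 96.6 CPM in MaAAD. The ranges overlapped in each case, with the controls holding the highest libraries. The changes were -0.51 ± 0.11 in FeAAD (log2, SE, edgeR adjusted p = 0.00029), -0.47 ± 0.12 in FeNonAD (adjusted p = 0.00537) and -0.41 ± 0.12 in MaAAD (adjusted p = 0.00669).

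Srsf5, a member induced quickly by growth signals, was at 290, 376 and 634 CPM in FeCon, at 290, 329 and 371 CPM in FeNonAD and at 247, 308 and 382 CPM in FeAAD. It fell by -0.43 ± 0.10 in FeAAD (edgeR adjusted p = 0.000491) and by -0.33 ± 0.10 in FeNonAD (adjusted p = 0.0259). FeCon7 and FeCon9 supplied the 2 highest values of Srsf5 and also of Srsf4 (179 and 162 CPM) and the 2 lowest of Srsf7 in FeCon (52.9 and 61.8 CPM). The same 2 mice had summed levels of 6 immediate early genes of 1143 and 1006 CPM, with a FeCon median of 390 CPM, and the part of these genes was not tested. FeAAD3 had an immediate early sum of 2089 CPM, the highest of all, with Srsf5 at 338 and Srsf4 at 89.3 CPM. Without FeCon7 and FeCon9 the FeNonAD change of Srsf5 was -0.13 (adjusted p = 0.304) and that of Srsf4 was -0.31 (adjusted p = 0.0538). The FeAAD fall of Srsf5 kept its call without these 2 mice, but its size rests partly on them. The next highest FeCon library for Srsf5 was FeCon5 at 446 CPM.

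Srsf9 was the SR gene that rose in FeAAD. It had 22.5, 27 and 39.3 CPM in FeCon and 28.5, 35.3 and 65.5 CPM in FeAAD, a change of 0.52 ± 0.13 (log2, SE, edgeR adjusted p = 0.00125). It was the only one of the 7 rises that remained called without FeAAD5, FeAAD9 and MaAAD7, at 0.25 (adjusted p = 0.0408). Srsf10 fell in FeAAD by -0.34 ± 0.09 (adjusted p = 0.00183). In MaAAD Srsf6 fell by -0.19 ± 0.07 (adjusted p = 0.034) and Srsf7 by -0.28 ± 0.11 (adjusted p = 0.0494), both calls being lost without MaNonAD2 or MaNonAD3, and that of Srsf6 without MaAAD7.

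The hnRNP genes bind nascent transcripts, and 4 fell and 1 rose of 20 tested in FeAAD, against 1 that fell and 2 that rose in MaAAD. Hnrnph3, which binds G-rich elements near splice sites, was the member with the lowest adjusted p in males. It was at 56, 63.4 and 68.2 CPM in MaCon, at 43.5, 56.5, 53.6 and 52.2 CPM in MaNonAD and at 33.7, 40 and 43.5 CPM in MaAAD. MaAAD and MaCon did not overlap, and the fall was -0.66 ± 0.07 (log2, SE, edgeR adjusted p = 3.83e-09).

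In females Hnrnph3 was at 43.4, 54.3 and 68.6 CPM in FeCon and at 36, 44.4 and 49.9 CPM in FeAAD. It fell by -0.33 ± 0.07 (edgeR adjusted p = 7.16e-05), and the difference between the sexes in the response was -0.33 ± 0.10 (log2, male minus female, adjusted p = 0.0757; called with DESeq2). It was also higher in MaCon than in FeCon, by 0.20 ± 0.07 (adjusted p = 0.0352). That sex difference between controls went to 0.14 and was not called with GC and length offsets.

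Hnrnpa1, which represses exons and competes with SR proteins, was at 148, 173 and 195 CPM in MaCon, at 185, 153, 153 and 174 CPM in MaNonAD and at 157, 221 and 326 CPM in MaAAD. It rose by 0.36 ± 0.13 in MaAAD over MaCon (edgeR adjusted p = 0.0204), and the rise was not called without MaAAD7 (adjusted p = 0.125) or with GC and length offsets. Hnrnpf, which binds the same G-rich elements as Hnrnph3, rose by 0.32 ± 0.10 (adjusted p = 0.00938), from 208 ± 19.1 to 260 ± 37.4 CPM (mean ± SD). In FeAAD Hnrnpa2b1, a partner of Hnrnpa1 in RNA transport, rose by 0.24 ± 0.10 (adjusted p = 0.0412), from 455 ± 50 to 537 ± 125 CPM, with 793 CPM in FeAAD5. Its call was lost without FeAAD5, without FeAAD9 and without FeCon10. Hnrnpdl fell in FeAAD by -0.29 ± 0.08 (adjusted p = 0.00196), Hnrnph1 by -0.21 ± 0.09 (adjusted p = 0.0459) and Hnrnpul1 by -0.17 ± 0.06 (adjusted p = 0.0224). Hnrnph1 lost its call without FeAAD5 or FeCon10, and Hnrnpul1 without FeAAD5, FeAAD9 and MaAAD7 together or with GC and length offsets. Without FeAAD5, FeAAD9 and MaAAD7 together, FeAAD against FeCon had 23 calls, 1 higher and 22 lower, of which 18 were among the 26.

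In all, 8 members were called in both AAD comparisons with control, which share no mice, and all 8 were lower in both sexes. They were Hnrnph3, Luc7l, Prpf6, Prpf8, Prpf40b, Sf3a2, Snrpn and Srsf4, with Luc7l in females and Prpf8 and Sf3a2 in males depending on the fit as given above. They made up 30.8% of the 26 members called in females and 57.1% of the 14 called in males. Members called in both sexes were 11.9% of the 67 tested, against 25% of all genes. Members lower in both were 11.9% of the 67 tested, against 9.9% of all genes, and no member was higher in both, where 2153 of the 14431 genes were. With GC and length offsets 9 members were lower in both, 13.4% of the members against 12.4% of all genes. Of these, 5 were among the 8, since Luc7l was lost in FeAAD and Prpf8 and Sf3a2 in MaAAD. Without FeAAD5, FeAAD9 and MaAAD7 the 8 were the same but for Prpf3 in place of Prpf8. They were then 11.9% of the members, against 8.45% of all genes.

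Between BAPN mice with and without a lesion, 10 members were called in females, where 18.2% of all genes were (13.2% higher and 5% lower), and 1 in males, where 0.409% were (0.0208% lower). In FeAAD against FeNonAD the 8 rises were Snrpd1, Snrpe, Snrpf, Snrpa1, Snrpb2, Sf3b6, Srsf9 and Hnrnpa1, and the falls were Prpf40b and Snrpn. Snrpf had 10.4, 14 and 18.3 CPM in FeNonAD against 12.1, 19.3 and 62 CPM in FeAAD, the widest change at 0.76 ± 0.24 (log2, SE, edgeR adjusted p = 0.0195). Hnrnpa1 was at 167, 189 and 214 CPM in FeNonAD and at 165, 218 and 473 CPM in FeAAD, a rise of 0.41 ± 0.12 (adjusted p = 0.0181), with 7 of 9 FeAAD mice above every FeNonAD mouse.

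Leaving out single mice changed this count. Without FeAAD5 the comparison had 1 call, without FeAAD9 it had 5, and without FeAAD5, FeAAD9 and MaAAD7 together the 1 call left was Prpf40b. A fit of the 2 groups alone called none of the 10. In males the call was Hnrnph3, lower in MaAAD than in MaNonAD by -0.39 ± 0.09 (edgeR adjusted p = 0.0497), and it was lost on leaving out MaNonAD2, MaNonAD3, MaNonAD4 or MaAAD7.

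In FeNonAD against FeCon, 8 members (11.9%) were called and all were lower, where 14.5% of all genes were called, 6.87% higher and 7.66% lower. They were Srsf4, Srsf5, Hnrnpdl, Hnrnpl, Sf3b1, Prpf18, Prpf39 and Prpf6. Hnrnpl, a repressor bound to CA-rich RNA, was at 164, 192 and 300 CPM in FeCon and at 147, 168 and 178 CPM in FeNonAD, a change of -0.30 ± 0.09 (edgeR adjusted p = 0.0193), with FeCon9 and FeCon7 again highest at 300 and 250 CPM. Hnrnpdl changed by -0.25 ± 0.08 (adjusted p = 0.0278). Without FeCon7 and FeCon9, 3 members were called, Hnrnpl being at -0.15 (adjusted p = 0.165) and Hnrnpdl at -0.22 (adjusted p = 0.0695). Without FeNonAD8 4 were called, and with GC and length offsets 18, all lower. The 14.5% of all genes belongs to the main fit and is no reference for these counts.

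In BAPN mice without a lesion most members lay slightly below their controls. Of the 67 tested members, 85.1% had a log2 change below 0 in FeNonAD against FeCon and 89.6% in MaNonAD against MaCon, where 49.4% and 53.4% of all tested genes did. The median changes were -0.11 and -0.10, against 0.00 and -0.02 over all genes. No control mouse is shared between these 2 comparisons. Genes of one library are not independent, so these shares are a description. All 9 Sf3 genes were below 0 in both sexes, as were all 10 tested Srsf genes in males. The Srsf genes of females were split, 6 below 0 and 4 above.

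In MaNonAD against MaCon no member was called by edgeR or by DESeq2, where 0.624% of all genes were called by edgeR. That share is at adjusted p and is no reference for a count without adjustment. At an unadjusted edgeR p under 0.05 there were 7 members, all lower. These were Srsf6, Srsf7, Hnrnph3, Hnrnpm, Prpf6, Prpf40b and Luc7l. Counts of all 48 libraries were simulated with 200 genes changed in MaNonAD. The test of MaNonAD against MaCon recovered 22% of those changed 1.5-fold and 70% of those changed 2-fold. With the changes put in FeAAD, the test against FeCon recovered 49% and 85%. The changed genes were drawn from all tested genes, at any level. In the real FeAAD comparison 44.4% of genes were called, which makes the adjustment of p less strict. These shares therefore do not give the recovery for the members.

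**Figure D5:**
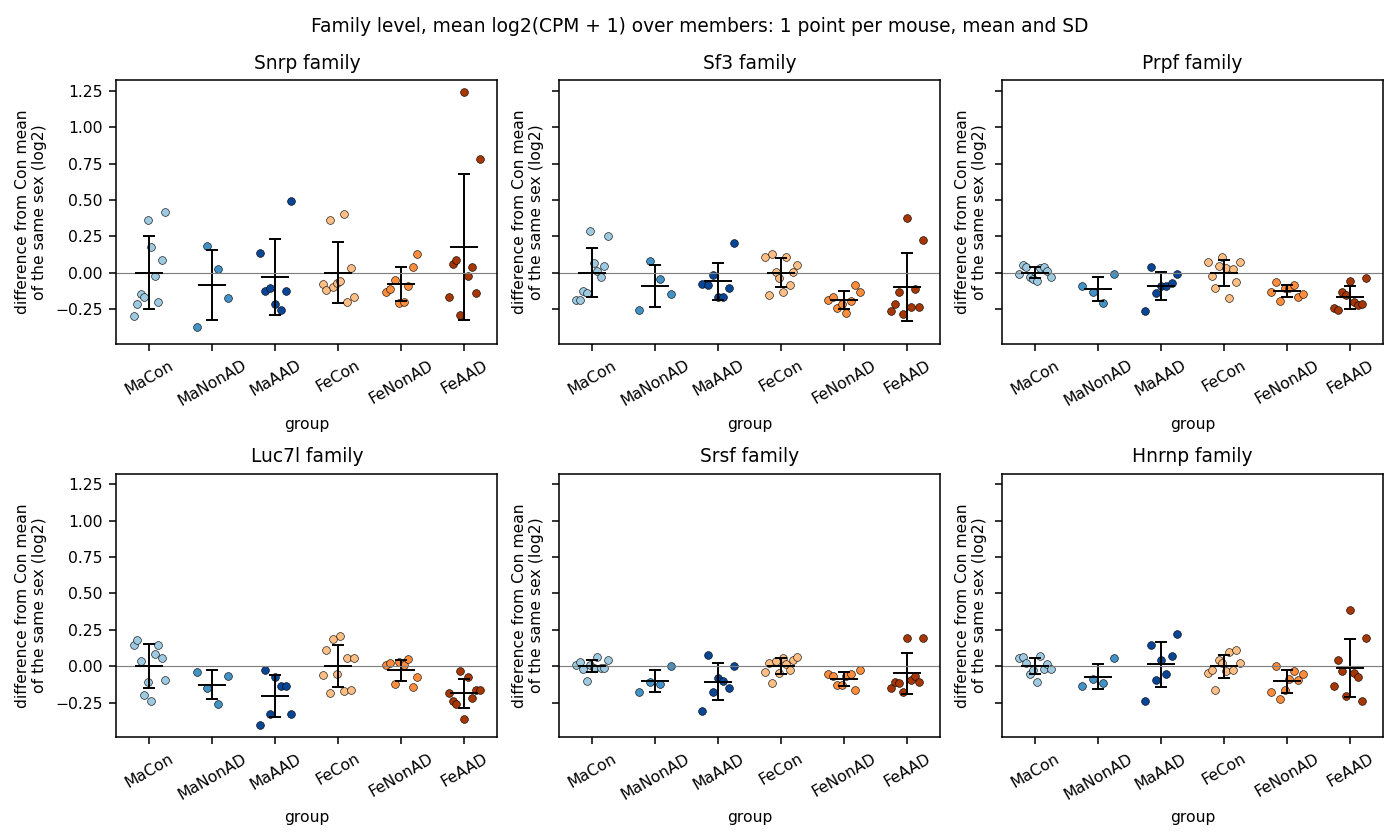
Level of each family, the mean log2(CPM + 1) over all its members, as the difference from the mean of the Con group of the same sex. The untested Srsf12 and Hnrnpa1l2-ps2 are included. Each point is 1 mouse, and bars show the mean ± SD. The Prpf level of most BAPN mice lies below 0 in both sexes, and the Snrp level spreads widest in FeAAD, from 4.41 in FeAAD4 to 5.94 in FeAAD5 before the control mean is taken off.

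The family levels give the size of the shift and its overlap. The Prpf level was 5.73 ± 0.09 in FeCon, 5.61 ± 0.04 in FeNonAD and 5.57 ± 0.08 in FeAAD, and 5.60 ± 0.04, 5.49 ± 0.09 and 5.51 ± 0.09 in MaCon, MaNonAD and MaAAD (mean ± SD of log2(CPM + 1), n as above). The Srsf level was 6.47 ± 0.06, 6.38 ± 0.05 and 6.42 ± 0.14 in the female groups in that order, and 6.43 ± 0.04, 6.33 ± 0.07 and 6.32 ± 0.12 in the males. The Prpf level lay within the range of the same-sex controls in 7 of 8 FeNonAD, 4 of 9 FeAAD, 1 of 4 MaNonAD and 2 of 7 MaAAD mice, and the Srsf level in 5 of 8, 5 of 9, 1 of 4 and 3 of 7. Not all Srsf levels outside the range were lower. FeAAD5 and FeAAD9, both at 6.66, lay above the FeCon maximum of 6.53, and MaAAD2, at 6.51, above the MaCon maximum of 6.49.

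The Sf3 level was 6.00 ± 0.10, 5.82 ± 0.06 and 5.91 ± 0.24 in FeCon, FeNonAD and FeAAD, and 5.95 ± 0.17, 5.85 ± 0.14 and 5.89 ± 0.13 in MaCon, MaNonAD and MaAAD. The Luc7l level was 6.85 ± 0.15, 6.82 ± 0.07 and 6.66 ± 0.10 in the same groups, where FeNonAD and FeCon had nearly the same mean and the highest FeAAD library, at 6.82, lay below the FeCon mean. In males it was 6.82 ± 0.15, 6.69 ± 0.10 and 6.61 ± 0.14, so that the mean of MaNonAD already lay below that of MaCon. The Hnrnp level was 7.06 ± 0.08, 6.95 ± 0.08 and 7.04 ± 0.20 in females and 6.96 ± 0.06, 6.88 ± 0.09 and 6.97 ± 0.16 in males. The Snrp level was 4.70 ± 0.21, 4.62 ± 0.12 and 4.88 ± 0.50 in females and 4.86 ± 0.25, 4.78 ± 0.25 and 4.84 ± 0.26 in males. No test was made on these levels.

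Between untreated mice of the 2 sexes, 9 members (13.4%) were called, where 14.3% of all genes were (6.38% higher and 7.9% lower). Snrpa and Hnrnph3 were higher in MaCon, and Hnrnpdl, Hnrnpf, Luc7l2, Prpf18, Prpf39, Sf3b1 and Sf3b3 were lower. Snrpa, the U1 protein A, was at 43.8, 53.8 and 78.1 CPM in MaCon and at 34.6, 42.4 and 58.9 CPM in FeCon, a difference of 0.39 ± 0.12 (log2, SE, edgeR adjusted p = 0.0284). Hnrnpdl was lower in MaCon by -0.35 ± 0.08 (adjusted p = 0.00141), Prpf39 by -0.34 ± 0.08 (adjusted p = 0.00528) and Sf3b3, another SF3B subunit, by -0.26 ± 0.07 (adjusted p = 0.0147). The controls also differed in other genes. The summed clock genes had medians of 1133 CPM in MaCon and 2233 CPM in FeCon, and the summed heat shock genes 4103 and 2158 CPM. The part of these genes was not tested.

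The count moved with the mice fitted, to 5 without FeCon10, whose heart muscle genes summed to 534 CPM against a FeCon median of 70.9 CPM, and to 18 without FeAAD5, FeAAD9 and MaAAD7. Without FeCon10 the calls of Snrpa (adjusted p = 0.0621), Hnrnpf (adjusted p = 0.0697) and Hnrnph3 were among those lost. Under BAPN no member was called between the sexes. In MaAAD against FeAAD 0 were called by edgeR and by DESeq2, with 1 at an unadjusted p under 0.05, where 0.0901% of all genes were called. In MaNonAD against FeNonAD 0 were called by both, with 4 at an unadjusted p under 0.05, where 0.0624% of all genes were called. These shares of all genes are at adjusted p and are no reference for the unadjusted counts.

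The sex difference in the response was tested as an interaction. For the AAD response 0 members were called by edgeR and 2 by DESeq2 (Sf3b1 and Hnrnph3), with 13 at an unadjusted edgeR p under 0.05, where 1.34% of all genes were called. For the NonAD response and for the step from NonAD to AAD, 0 were called by edgeR and by DESeq2, with 2 at an unadjusted p under 0.05 in each, where 0.416% and 0% of all genes were called. All 3 shares are at adjusted p, so they are no reference for the counts at unadjusted p.

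Among other spliceosome genes, more fell than rose. Of 137 further genes tested from lists of the pathway, 49 fell and 14 rose in FeAAD against FeCon, 39 fell and 6 rose in MaAAD against MaCon, 28 fell and 1 rose in FeNonAD against FeCon, and none was called in MaNonAD against MaCon. Over all tested genes 20.6% fell and 23.8% rose in FeAAD, 16.1% and 18.9% in MaAAD, and 7.66% and 6.87% in FeNonAD. Without FeAAD5, FeAAD9 and MaAAD7 together, 61 of the 137 fell and 5 rose in FeAAD, and 43 fell and 5 rose in MaAAD. Of 9 SR kinases, which phosphorylate SR proteins and release them from nuclear stores, 6 fell and none rose in each AAD comparison. Dyrk1a fell by -0.54 ± 0.07 in FeAAD (log2, SE, edgeR adjusted p = 5.6e-08) and Clk1 by -0.62 ± 0.11 in MaAAD (adjusted p = 7.41e-06).

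Of 22 exon junction and SR-related genes, 12 fell in FeAAD and 9 in MaAAD and none rose. Son, a speckle scaffold, fell by -0.42 ± 0.07 in FeAAD (edgeR adjusted p = 1.81e-06) and Casc3, of the exon junction complex, by -0.29 ± 0.07 in MaAAD (adjusted p = 0.000846). Of 32 catalytic-step and helicase genes, 10 fell and 3 rose in FeAAD, and 7 fell and 1 rose in MaAAD. Syf2, a partner of the complex that stabilises the catalytic site, fell in both, by -0.57 ± 0.09 (adjusted p = 2.42e-06) and by -0.39 ± 0.10 (adjusted p = 0.00178).

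Among 34 further snRNP and U2AF genes, 9 fell and 6 rose in FeAAD, and 9 fell and none rose in MaAAD. The 6 rises were the tri-snRNP cyclophilin Ppih, the U6-binding Lsm2, Lsm5, Lsm6 and Lsm7, and Snrnp25 of the minor spliceosome. Ppih was at 10.3 ± 7.03 CPM in FeAAD and 4.92 ± 1.28 CPM in FeCon (mean ± SD), a rise of 1.07 ± 0.21 (log2, SE, edgeR adjusted p = 6.99e-05), which was 0.52 (adjusted p = 0.00197) without FeAAD5, FeAAD9 and MaAAD7. Of the other 5 rises, Lsm6 was still called without those mice, at 0.28 (adjusted p = 0.0222), and Lsm2, Lsm5, Lsm7 and Snrnp25 were not. Zrsr1, related to the small subunit of U2AF, fell by -0.99 ± 0.14 in FeAAD (adjusted p = 1.62e-07) and by -0.70 ± 0.15 in MaAAD (adjusted p = 0.000215). Sf1, which binds the branch point before U2, fell by -0.49 ± 0.08 and -0.35 ± 0.08 (adjusted p = 1.03e-06 and 0.000657).

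Of 40 regulators of alternative exons tested, 12 fell and 5 rose in FeAAD, and 8 fell and 5 rose in MaAAD. Rbpms, a driver of exon choice in differentiated smooth muscle, fell by -1.14 ± 0.16 in FeAAD (edgeR adjusted p = 2.65e-07) and by -0.81 ± 0.18 in MaAAD (adjusted p = 0.000259). Ptbp2 fell by -0.90 ± 0.10 in FeAAD (adjusted p = 1.58e-09), by -0.57 ± 0.11 in MaAAD (adjusted p = 3.62e-05) and by -0.56 ± 0.10 in FeNonAD (adjusted p = 0.000223), while its paralogue Ptbp3 rose by 0.57 ± 0.14 in FeAAD (adjusted p = 0.000991) and by 0.69 ± 0.15 in MaAAD (adjusted p = 0.000305). Without FeAAD5, FeAAD9 and MaAAD7, Ptbp2 changed by -0.88 in FeAAD and -0.53 in MaAAD and Ptbp3 by 0.39 and 0.60, and these changes and those of Rbpms were still called, as were the falls given above for Dyrk1a, Clk1, Son, Casc3, Syf2, Zrsr1 and Sf1.

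Cell type markers moved with these groups. All 8 smooth muscle markers fell in both AAD comparisons, with median log2 changes of -1.01 in females and -1.06 in males, and all 7 macrophage and all 6 proliferation genes rose. In FeNonAD 2 of 8 smooth muscle markers fell, 5 of 6 proliferation genes rose and no macrophage gene was called. Less RNA per cell and fewer cells of a type cannot be told apart in whole aorta. Neutrophil genes rose, 5 of 5 in FeAAD and 4 of 5 in MaAAD against control, as did 4 of 4 B cell genes in FeAAD, 2 of 4 in MaAAD and 3 of 4 in MaNonAD. Of 7 fibroblast genes 3 rose and 1 fell in FeAAD, 4 rose in MaAAD and 2 rose in FeNonAD. In FeAAD 3 of 6 heart muscle genes fell and 3 of 6 immediate early genes rose. Of 11 clock genes 2 rose and 3 fell in MaAAD and 2 fell in FeAAD. Arntl, a core activator of the clock, was at 38.1 ± 16.9 CPM in MaCon, 6.09 ± 4.74 CPM in MaNonAD and 5.53 ± 2.06 CPM in MaAAD (mean ± SD). No clock gene was called in MaNonAD against MaCon, Arntl included. The median log2 change of the 11 was 0.73 there and 0.41 in MaAAD against MaCon, so Arntl went against the list. Within FeNonAD the summed clock level was 599, 653 and 788 CPM in FeNonAD5, FeNonAD6 and FeNonAD8 and 1817 CPM or more in the others. Within FeAAD it was 369, 600, 602 and 798 CPM in FeAAD5, FeAAD6, FeAAD9 and FeAAD7 and 1408 CPM or more in the others. All 6 heat shock genes fell in MaAAD and 3 of 6 in MaNonAD, against MaCon. Transcript length also moved between libraries, with a correlation across 14261 genes between log2 length and a library's deviation from the mean that ran from -0.46 in MaNonAD3 to 0.40 in FeNonAD4. The part of cell makeup, clock genes, heat shock and length in the members' changes was not tested beyond the fits named above.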

How the data were processed

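Per the labels and the submitters' processing notes, strand-specific reads were processed by the authors with Bowtie2 and RSEM 1.3.1 on the mouse build GRCm39. The authors deposited 1 table of expected counts per gene, RSEM's estimates, which divide reads that fit several entries, so that 4.99% of values were not whole. They were rounded to whole numbers here. Groups and sex came from the labels, with 1 library per mouse. The study's text says that mice of a group shared cages, which the labels do not give and no fit could include. P-values therefore measure the spread between these mice.

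A robust quasi-likelihood model with 1 mean per group was fitted over all 48 libraries (edgeR 4.0.16, limma 3.58.1, R 4.3.3), after filterByExpr and TMM scaling, with factors from 0.874 to 1.08. 1 count was worth about 0.0638 CPM. CPM are TMM-scaled, and SEs are approximate, from the fold change and its F statistic. Family levels are means of log2(CPM + 1) over all listed members, tested or not. There were 9 pairwise comparisons and 3 tests of a sex difference in the response. Simulated counts with 200 changed genes were used to test the script. Promoter sequences are RefSeq's on GRCm38.p6. No coordinates were converted between builds.

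Named members were, in each comparison and direction, the 6 with the lowest adjusted p among those called, the member of each family with the highest mean and that with the largest AAD change, and those not tested. From each pathway list the 2 with the lowest adjusted p per direction were eligible. Other members were named after their values were seen. 1 member that was tested and counted is not reported here. The members, gene lists and markers were chosen with earlier results of these data known.

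Alternatives were edgeR with no filter, without robust fitting, on the compared groups alone or with DESeq2's scaling, DESeq2 1.42.0 itself, a replicate block, offsets for GC content and length (mgcv 1.9.3), a 2-fold minimum, a pseudocount of 0.1, and leaving out each MaNonAD mouse, FeCon10 or FeNonAD8. Leaving out FeAAD5, FeAAD9, MaAAD7, these 3 together, or FeCon7 with FeCon9, and the block with the offsets, were added after seeing the data.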

Additional observations from a re-analysis of the deposited data

Results flagged for a closer look

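A value is given here where, in a group of 4 to 10 mice, 1 mouse stood so far from the nearest other that Dixon's 95% limit was passed. Of 174 groups tested 20 passed. A rate of 1 in 20 would give 8.7, but only for independent, normally distributed values. The genes flagged were named members, many of them picked by adjusted p in these data, and several were extreme in the same mice. The 8.7 is therefore no valid chance count, and the flags are a description. MaAAD7 was the mouse in 6 of the 20. It had Snrpa1 at 34.1 CPM (the nearest other mouse of its group at 19.6), Snrpd1 at 40.6 (nearest 23.8), Snrpe at 32.3 (nearest 21.3), Snrpf at 39.3 (nearest 24.2), Srsf9 at 54.6 (nearest 37.5) and the highest MaAAD Sf3 level, 6.15 on the log2(CPM + 1) scale (nearest 5.93). FeAAD5 had Hnrnpa1 at 473 CPM (nearest 295), Sf3b6 at 67.3 (nearest 33.9) and Snrpe at 61.8 (nearest 36.1). These are 2 of the 3 mice with the highest sums of proliferation genes, whose part was not tested.

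MaAAD1 was low in Sf3b1 at 183 CPM (nearest 239) and in Sf3b3 at 84.9 CPM (nearest 106). FeAAD8 was high in Prpf6 at 64.6 CPM (nearest 56.3) and in Srsf4 at 120 CPM (nearest 95), and MaAAD3 was high in Srsf4 at 96.6 CPM (nearest 81.5). FeAAD6 was low in Hnrnpdl at 181 CPM (nearest 201). FeNonAD8 was high in Snrpd1 at 21 CPM (nearest 17.1).

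Among controls, FeCon3 was high in Snrpe at 22.2 CPM (nearest 16.4) and in Srsf9 at 39.3 CPM (nearest 31.5), FeCon7 was high in Hnrnph3 at 68.6 CPM (nearest 56.4), and MaCon4 had the lowest MaCon Srsf level at 6.33 (nearest 6.41).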

How the results depend on the processing

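With a 2-fold minimum the count of members called fell to 0 in FeAAD against FeCon, MaAAD against MaCon, FeNonAD against FeCon, FeAAD against FeNonAD, MaAAD against MaNonAD and MaCon against FeCon. Leaving out single mice gave 22 to 28 calls in FeAAD against FeCon, 11 to 19 in MaAAD against MaCon, 4 to 10 in FeNonAD against FeCon, 1 to 12 in FeAAD against FeNonAD, 0 to 4 in MaAAD against MaNonAD and 5 to 15 in MaCon against FeCon. MaAAD against MaNonAD rested on 1 call, which was also 0 without a filter, in the compared groups alone, and without FeCon7 and FeCon9, and 2 with DESeq2. Counts of calls under alternative fits, here and above, stand without the shares of all genes under those fits. The exception is the members lower in both AAD comparisons.

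FeNonAD against FeCon had 18 calls with GC and length offsets and 3 without FeCon7 and FeCon9. FeAAD against FeNonAD had 6 with the offsets, 0 in the compared groups alone, and 1 without FeAAD5, FeAAD9 and MaAAD7. MaCon against FeCon had 15 with DESeq2 size factors, 17 with DESeq2 and 18 without those 3 mice. The sex difference in the AAD response had 2 calls with the offsets, 2 with DESeq2 and 1 without FeCon7 and FeCon9. The offsets split the calls 3 higher and 22 lower in FeAAD against FeCon. Of 44 named calls under 19 settings, 742 of 836 kept their side, 93 lost the call and 1 reversed, Snrpa1 in FeAAD against FeCon at -0.01 without the 3 mice. The causes were not tested.

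Replicate numbers did not pair the mice: the mean correlation of same-numbered deviations ran from -0.0611 to 0.145, no comparison had every pair over 0.1, and mice matched best on their own number in 0 of 9 pairs of FeAAD and 0 of 7 of MaAAD with control, 2 of 8 of FeNonAD with FeCon, 0 of 4 of MaNonAD with MaCon, 0 of 8 of FeAAD with FeNonAD, 2 of 4 of MaAAD with MaNonAD and 1 of 10 of MaCon with FeCon. With a replicate block, calls were 21 in FeAAD against FeCon, 13 in MaAAD against MaCon, 9 in MaCon against FeCon, 4 in FeNonAD against FeCon, 3 in FeAAD against FeNonAD and 0 in MaAAD against MaNonAD. The block with the offsets gave 3 and 0 in the last comparisons.

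Limits are the 4 MaNonAD mice, outcome groups that were not assigned, mixed cell types, and gene totals that show no exon choice. With a pseudocount of 0.1 the 24 family values moved by less than 1 SD.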
